A study of Mus musculus with 4 samples.

Results

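A set of 10 genes of the smooth muscle contractile apparatus, of 31053 genes in the count matrices, is described in the cells of mouse brain vessels: Acta2, Tagln, Myh11, Myl9, Cnn1, Des, Tpm2, Smtn, Myocd and Actg2. They were chosen by symbol, as genes known from smooth muscle, and each symbol was present once. Brain vascular-associated cells (BVACs) were isolated with CD31 antibody-conjugated microbeads and profiled by 3′ single-cell RNA sequencing in 4 libraries, each pooled from 4 male wild-type C57BL/6 mice aged 12 to 14 weeks. In the chronic social defeat (CSD) libraries, CSD 1 and CSD 2, each mouse lived for 14 days across a perforated partition from an aggressive CD-1 mouse and met it directly for a short time every day. In the home cage (HC) libraries, HC 1 and HC 2, each mouse was also housed with a CD-1 mouse for 14 days, but the partition between them was never removed. The cerebellum, striatum, brainstem and olfactory bulbs were removed before isolation. With pooled mice there were 2 libraries a group, p-values measure the spread between pools and not between animals, and an exact permutation test of 2 against 2 could not go below 0.333.

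Mural cells wrap the endothelial tube of brain vessels. Smooth muscle cells (SMCs) ring arteries, arterioles and veins and set vessel calibre, whereas pericytes lie on capillaries and are known for low levels of the contractile proteins. In SMCs calcium activates the kinase Mylk, which phosphorylates the myosin light chain so that Myh11 filaments pull on actin. Most of the genes are switched on together by serum response factor (SRF) with its coactivator myocardin, through a short DNA element called the CArG box.

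Over 14415 cells (droplets with at least 500 UMIs and 250 genes and at most 25% mitochondrial UMIs), 2553 to 4934 a library, the libraries held 27297599 to 30361474 UMIs in all droplets, of which 32.6% lay in cells in CSD 2 and 51.8% to 56.8% in the other 3. Any pair of libraries shared 0 to 9 cell barcodes. Classes of cells came from clusters that were made without the 10 genes and named from other markers. None of the 10 thus decided which cells were called SMCs, but the SMC markers included Mylk, Pln and Pdlim3 of the wider contractile system. The SMC cluster held 484 cells (178, 60, 94 and 152 in CSD 1, CSD 2, HC 1 and HC 2), detected 13 of its 14 markers at the level required for naming, and was led by Tagln, Acta2, Tpm2, Myl9 and Myh11. Pericytes numbered 558 (99, 162, 76 and 221) with 10 of 10 markers, and fibroblasts 130 (36, 19, 17 and 58). Fibroblasts came from a cluster of 118 cells with 7 of 9 markers and another of 12 cells with 4 of 9. The library with the fewest SMCs had the deepest ones: the median SMC held 3520 UMIs in CSD 1, 8642.5 in CSD 2, 5716 in HC 1 and 2555 in HC 2.

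Promoter sequences from RefSeq (build GRCm38.p6, 250 bases before to 50 after the start) matched 6 of the 10 genes, namely Acta2, Myl9, Cnn1, Des, Tpm2 and Smtn. The CArG box was searched on both strands in its strict form, with a core of A and T alone, and in a form with 1 C or G in the core. The matches are printed below as 30-base windows, 5′ to 3′ on the gene's strand, because the box is the element through which SRF is known to act on these genes. Capitals mark the box.
Acta2, 84 bases before the start, chr19:34255438-34255467, minus strand: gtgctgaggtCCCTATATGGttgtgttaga
Acta2, 34 bases before the start, chr19:34255388-34255417, minus strand: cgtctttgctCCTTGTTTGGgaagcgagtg
Myl9, 161 bases before the start, chr2:156775293-156775322, plus strand, strict form: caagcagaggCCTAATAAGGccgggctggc
Myl9, 99 bases before the start, chr2:156775355-156775384, plus strand: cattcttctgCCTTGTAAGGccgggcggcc

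The strict form stood in 1 of the 6 promoters, that of Myl9, against 1.47% of 32851 mouse promoters of the same length. The form with 1 C or G stood in 2 of 6, Acta2 and Myl9, against 7.24% of all promoters, and Acta2 held it at 2 places, as 0.548% of all promoters did. The starts are those of RefSeq. In the gene annotation of the same assembly both Acta2 windows lie within the limits of the gene (chr19:34241090-34255590). A match is a description of letters and not of binding, and its absence from 4 of the windows says nothing of SRF.

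SMCs were the main holders of contractile transcripts. Of 142309 UMIs of the 10 genes in cells, 120511 (84.7%) lay in the 484 SMCs, which were 3.36% of the cells. Summed over the 10 genes, the level in SMCs was 50087 CPM (UMIs of the gene per 1000000 UMIs of the class in that library) in CSD 1, 52725 in CSD 2, 51858 in HC 1 and 47554 in HC 2, a mean of 50556 ± 2282 (SD, n = 4 libraries). The 4 libraries lay close together and the groups overlapped. In the median SMC the 10 genes made up 5.01% of all UMIs, and in the middle 80% of SMCs between 2.56% and 7.45%. The kit counts each molecule once at its 3′ end, so UMIs were not divided by transcript length.

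A pair of actins belongs to the set. Acta2 (ENSMUSG00000035783, GRCm38 chr19:34241090-34255590), smooth muscle α-actin and the major thin filament protein of arterial muscle, was at 17541, 18806, 18508 and 16792 CPM in SMCs of CSD 1, CSD 2, HC 1 and HC 2. It alone made up 35.4% of the contractile UMIs there. Actg2 (ENSMUSG00000059430, chr6:83512905-83536265), the γ-actin typical of visceral smooth muscle, was at 127, 154, 144 and 102 CPM, a mean of 132 ± 22.8 (SD, n = 4). The ranges of both genes in SMCs lay above those in every other named class with at least 10 cells in every library.

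The motor is represented by a heavy and a light chain. Myh11 (ENSMUSG00000018830, chr16:14194535-14291372), the smooth muscle myosin heavy chain, was at 3089, 2779, 2987 and 2656 CPM in SMCs, with a mean of 2878 ± 196 (SD, n = 4). Myl9 (ENSMUSG00000067818, chr2:156775420-156781658), the regulatory light chain that Mylk phosphorylates, was at 7178, 6835, 7139 and 7494 CPM, with a mean of 7162 ± 270. Myl9 varied least of the 10 relative to its mean, and its lowest value was that of CSD 2.

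Tagln, Tpm2 and Cnn1 encode proteins bound along the thin filament. Tagln (ENSMUSG00000032085, chr9:45929619-45936058), the actin-bundling protein transgelin, was second to Acta2 at 13760, 14860, 14560 and 12945 CPM. Tpm2 (ENSMUSG00000028464, chr4:43514711-43523765), β-tropomyosin, lay at 6659, 7320, 6796 and 5960 CPM. Cnn1 (ENSMUSG00000001349, chr9:22099216-22109630), the actin-binding calponin, was much lower at 494, 677, 497 and 398 CPM. Acta2, Actg2, Tagln, Tpm2 and Cnn1 shared the order of libraries CSD 2, HC 1, CSD 1 and HC 2 from high to low. This order set 1 CSD and 1 HC library at the ends. The median UMIs of an SMC, given above, followed the same order, and the part of depth was not tested.

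Des (ENSMUSG00000026208, chr1:75360329-75368579), the muscle intermediate filament desmin, was at 868, 959, 841 and 871 CPM in SMCs. Smtn (ENSMUSG00000020439, chr11:3517523-3540612), smoothelin of the contractile filament bundles, was at 289, 259, 333 and 283 CPM. Both sets of values overlapped between CSD and HC. Myocd (ENSMUSG00000020542, chr11:65176561-65269989), the coactivator myocardin itself, was the scarcest of the 10 at 81.1, 76.0, 51.8 and 52.0 CPM. It was the 1 gene of the set with both CSD libraries above both HC libraries in SMCs, a comparison taken up below.

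**Figure D1:**
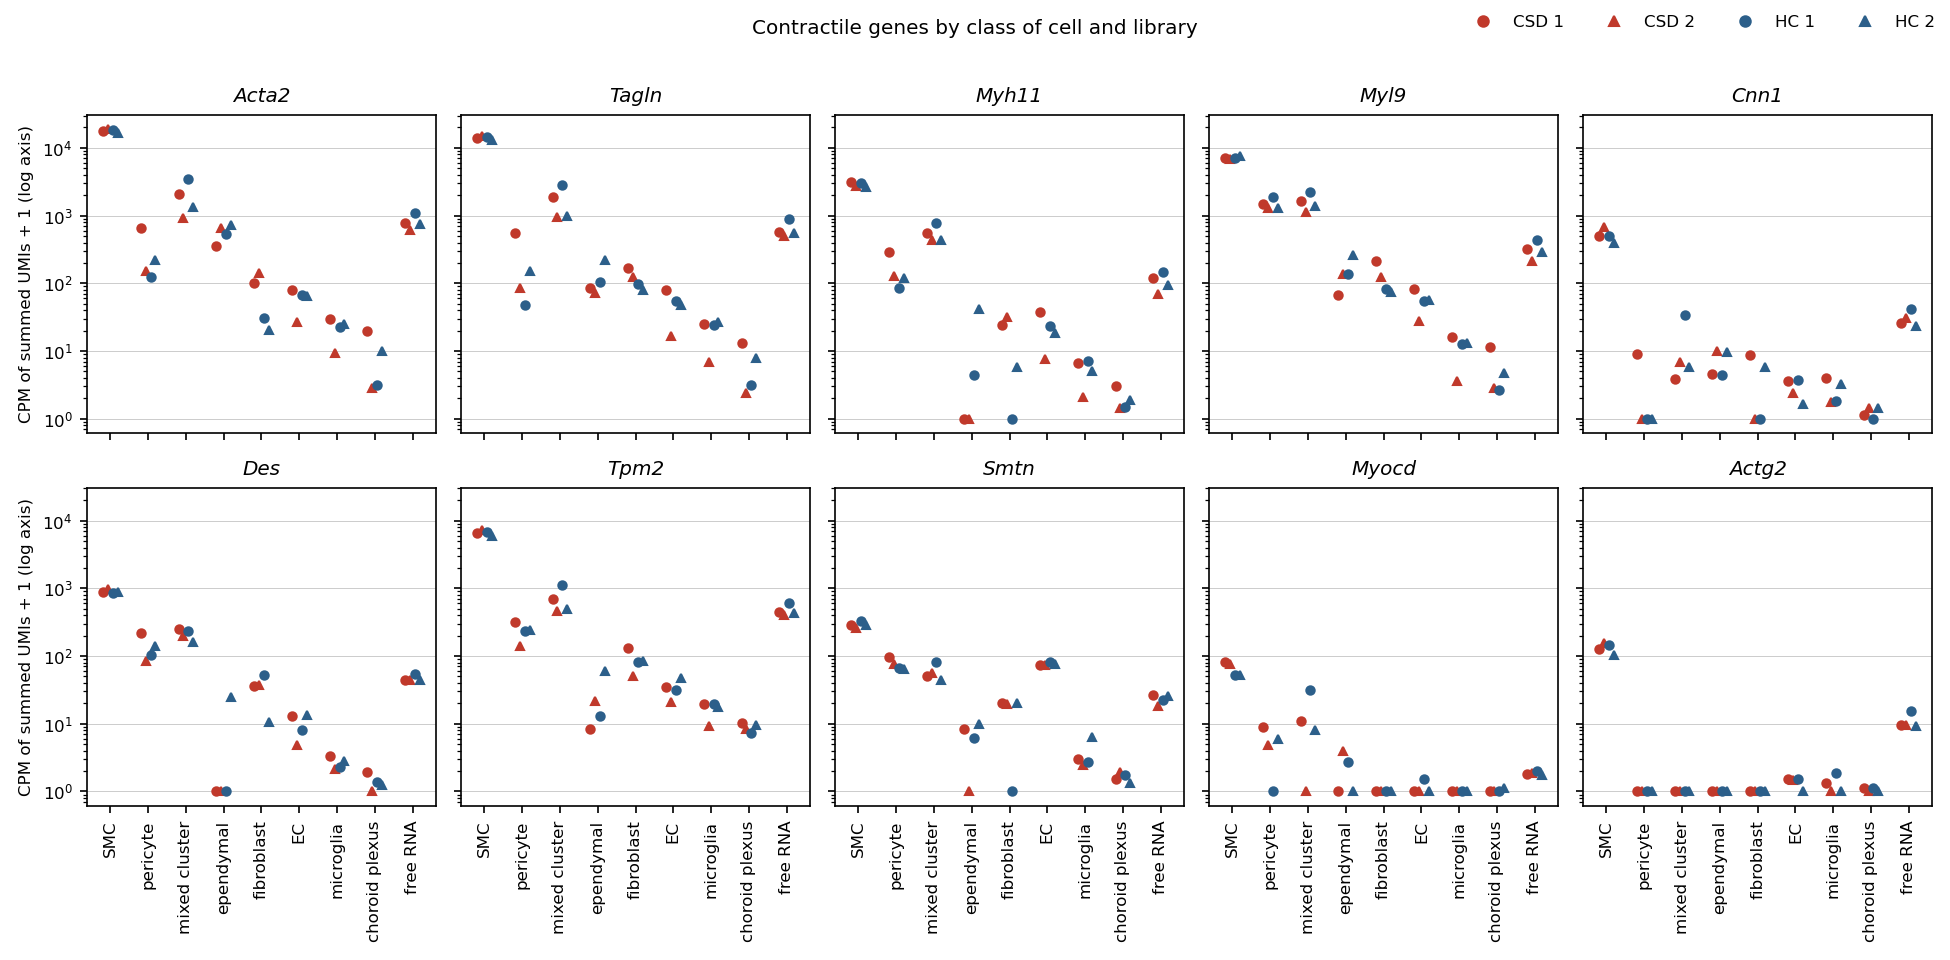
Level of each contractile gene (CPM of summed UMIs plus 1, log axis) by class of cell, in an unnamed cluster with EC and pericyte markers (mixed cluster) and in droplets of at most 100 UMIs (free RNA), with 1 point a library. CSD is red and HC blue. For every gene the SMC points stand above the others, and in pericytes Myl9 stands highest, at 1273 to 1861 CPM.

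Pericytes carried a lower level and another mixture of the genes. The summed level was 3655, 1941, 2519 and 2227 CPM, a mean of 2585 ± 751 (SD, n = 4), with CSD 1 highest. SMCs were above pericytes of the same library by 4.33 ± 0.41 on the log2 scale (SD, n = 4), which was 13.7-fold to 27.2-fold. These differences between classes are descriptions and were not tested, since the genes are known for this pattern and the classes are clusters of the same cells.

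Myl9 dominated in pericytes at 1500, 1273, 1861 and 1287 CPM, 3.84-fold to 5.83-fold below SMCs. Its share of the contractile UMIs was 59.6% ± 14.0 in pericytes (41.0% to 73.9%, n = 4 libraries) against 14.2% in SMCs, and the lowest share was in CSD 1. Des was at 221, 83.9, 103 and 141 CPM, Tpm2 at 316, 141, 235 and 244 CPM and Myh11 at 292, 126, 84.6 and 117 CPM. In all 4 of these genes the pericyte range stood above the next class in order without overlap. Acta2 made up 10.2% of contractile UMIs in pericytes, and its levels of 663, 153, 122 and 219 CPM overlapped those of the next class.

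Actg2, Cnn1 and Myocd were nearly absent from pericytes. Actg2 had no UMI in 558 pericytes, which allows a share of up to 0.538% of cells with a UMI, and SMCs were at least 31.0-fold higher (floor of 3 UMIs over the class). Cnn1 had 1 UMI in all pericytes, a ratio of 364 between SMCs and pericytes with a 95% counting interval of 65.2 to 14386. Myocd had 3 UMIs in pericytes, a ratio of 15.6 with an interval of 5.25 to 76.5. Intervals and floors cover counting error only. Smtn was the opposite case: pericytes (94.7, 76.2, 65.8 and 63.4 CPM) overlapped endothelial cells (ECs; 72.6, 73.3, 79.4 and 75.9 CPM), and SMCs were only 3.05-fold to 5.06-fold above pericytes.

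**Figure D2:**
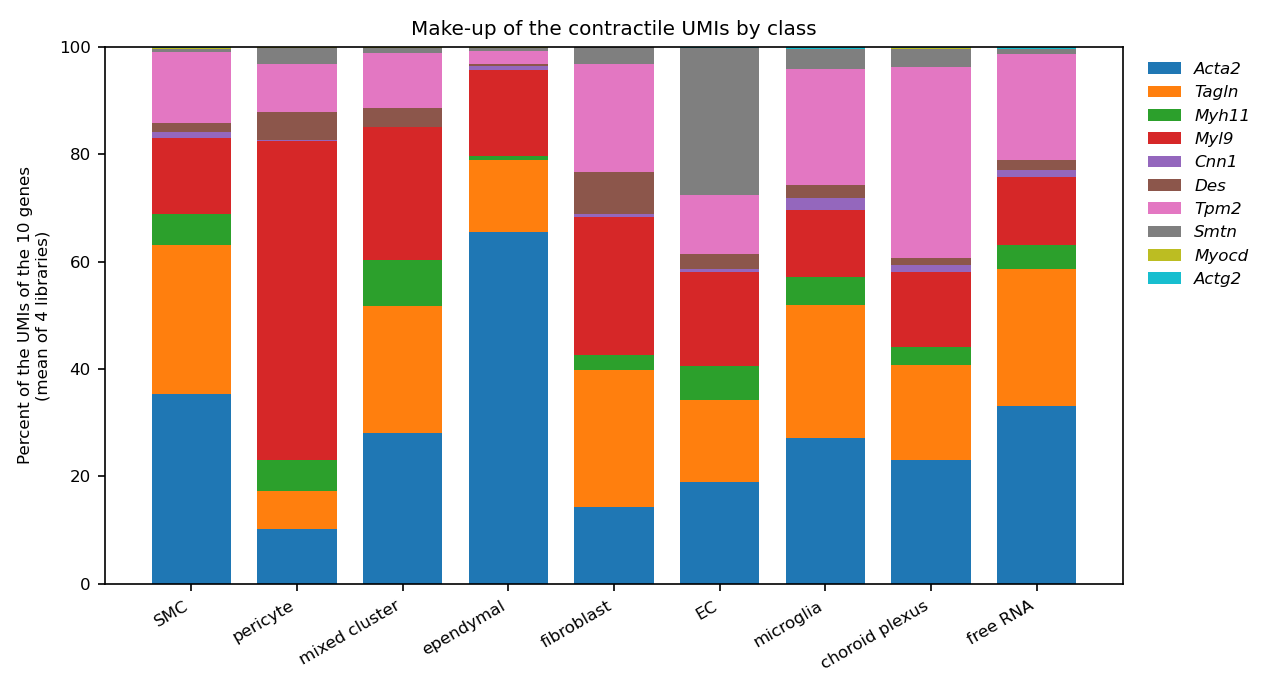
Share of each gene among the UMIs of the 10 contractile genes (percent, mean of 4 libraries) in each class and in droplets of at most 100 UMIs. SMCs are led by Acta2 (35.4%) and Tagln (27.7%), pericytes by Myl9 (59.6%) and ECs by Smtn (27.3%).

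Outside mural cells the levels were low, and free RNA set a limit on reading them. Droplets of at most 100 UMIs, which hold no cell, carried the 10 genes at 2332, 1874, 3289 and 2209 CPM. Microglia, which should lack these genes, were at 99.3, 29.5, 86.7 and 92.2 CPM and ECs at 301 ± 92.5 CPM (SD, n = 4). The mixture in microglia (27.1% Acta2, 24.8% Tagln and 21.6% Tpm2) lay near that of the empty droplets (33.1%, 25.6% and 19.6%). In pericytes too, mean Acta2 (289 CPM), Tagln (209) and Tpm2 (234) lay below free RNA (804, 623 and 471). Myl9 (1480 against 313) and Des (137 against 46.2) lay above it. Mean Myh11 was also above it (155 against 107), but its library ranges overlapped (84.6 to 292 CPM in pericytes, 69.3 to 148 in free RNA). Pericyte Acta2 was 5.58-fold to 23.3-fold above microglia of the same library, and Tagln 1.99-fold to 23.2-fold. The part of free RNA in pericyte levels was not tested. In ECs Smtn stood apart at 75.3 ± 3.09 CPM, 14.3-fold to 49.1-fold above microglia of the same library, and took 27.3% ± 10.2 of contractile UMIs.

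In fibroblasts Acta2 was at 100, 141, 29.7 and 19.6 CPM, Tagln at 165, 123, 96.5 and 78.3, Myl9 at 212, 123, 81.6 and 73.4, and Tpm2 at 131, 49.1, 81.6 and 83.2. These ranges overlapped those of neighbouring classes, except that the pericyte range of Tpm2 lay wholly above that of fibroblasts. The fibroblast levels and floors include a small cluster of 12 deep cells (median 21035 UMIs), which held 1 Acta2 UMI. The summed level on the log2 scale was 9.43, 9.03, 8.42 and 8.20 with that cluster. Without it, a choice made after seeing the data, the level was 10.3, 9.74, 9.34 and 9.01. Myocd and Actg2 had no UMI in 130 fibroblasts, so SMCs were at least 17.0-fold and 33.8-fold higher.

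Ependymal cells, the ciliated lining of the ventricles, ranked second for Acta2 among the named classes. Their Acta2 level was 357, 664, 528 and 737 CPM, a mean of 572 ± 167 (SD, n = 4), which overlapped the pericyte range. Acta2 took 65.6% ± 8.09 of contractile UMIs in ependymal cells against the 33.1% of the empty droplets. With every cell thinned to 1000 UMIs, 31.8% of 214 ependymal cells held an Acta2 UMI (95% Clopper-Pearson interval 25.6% to 38.5%). At the same depth 2.4% of microglia did. The interval pools cells of the 4 libraries and leaves out the spread between libraries. Myl9 made up 15.9% of contractile UMIs in ependymal cells, Tpm2 2.39% and Myh11 0.87%.

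A cluster of 321 cells (116, 35, 53 and 117) was left unnamed because it held markers of ECs and pericytes together. Its EC markers summed to 12467 to 16352 CPM, its arterial EC markers to 1602 to 2477, its pericyte markers to 3359 to 6934 and its SMC markers to 1888 to 2919. The 10 genes summed to 7106, 4153, 10751 and 4862 CPM in these cells, above pericytes in every library. Acta2 was present in 186 of the 321 cells, and 139 cells with at least 5 Acta2 UMIs held 97.4% of its UMIs. These counts were not thinned, and the median cell of the cluster held 5169 UMIs, against 994.5 in pericytes and 1186 in ECs. Actg2 was at 0 there. These cells entered no comparison of conditions.

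At equal depth the genes differed widely in how many SMCs showed them. Of 484 SMCs, 468 could be thinned to 1000 UMIs and 16 were shallower. All 468 held at least 1 contractile UMI, and a cell showed 6.13 of the 10 genes on average, with library means of 6.19, 6.03, 6.02 and 6.16. Acta2 was found in 100% of cells, Tagln in 99.6%, Myl9 in 98.3%, Tpm2 in 97.01% and Myh11 in 91.0%. Des was found in 53.8%, Cnn1 in 33.8%, Smtn in 24.1%, Actg2 in 9.62% and Myocd in 5.56%. Without thinning Cnn1 was in 60.3%, Myocd in 26.4% and Actg2 in 22.9%, so the order of the last pair depended on depth.

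Of the pericytes 277 could be thinned and 281 were left out as shallower. They showed 1.44 of the genes on average and 84.8% held at least 1, chiefly Myl9 (73.3%). Tpm2 was in 18.4%, Myh11 in 12.3%, Des in 11.9% and Acta2 in 11.6% of them. By the same measure 20.9% of 2621 ECs and 7.82% of 3708 microglia held any contractile UMI.

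**Figure D3:**
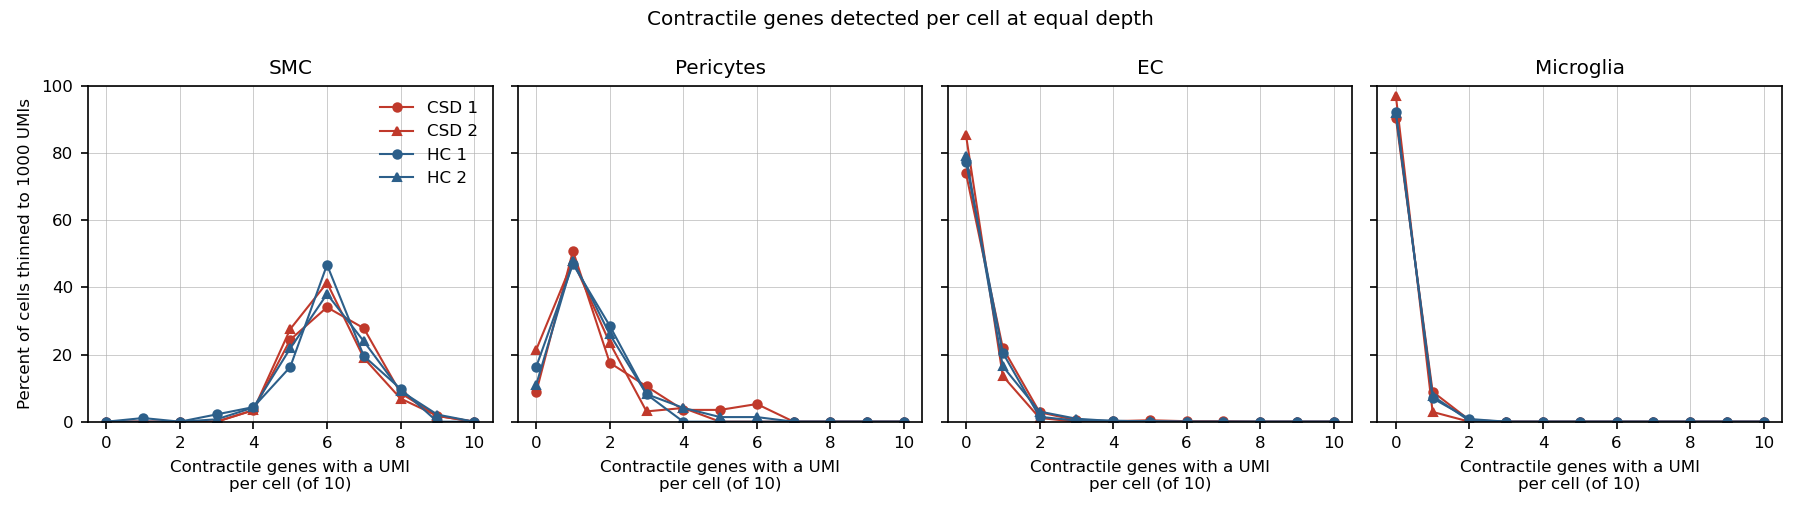
Number of the 10 contractile genes with a UMI per cell, after thinning each cell to 1000 UMIs (percent of cells, by class and library). SMCs average 6.13 genes and pericytes 1.44, and the 4 libraries of SMCs lie between 6.02 and 6.19.

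The spread among SMCs was described at equal depth first. Thinned Acta2 counts had a median of 18 UMIs with 7 at the 10th and 30 at the 90th percentile. The variance of thinned counts was 4.02 times the mean for Acta2, 3.397 times for Tagln and 2.70 times for Tpm2. It was 1.34 times for Cnn1, 1.26 for Actg2 and 1.04 for Smtn, and a ratio of 1 is that of counting alone. At the same relative spread this ratio rises with the mean count, so it does not rank the genes by unevenness. The means were 18.1 UMIs for Acta2, 0.479 for Cnn1 and 0.115 for Actg2. Without thinning, the 48 SMCs richest in each gene, of 484, held 29.7% of Acta2 UMIs, 49.6% of Cnn1 UMIs and 73.4% of Actg2 UMIs. Such shares are high for any sparse gene and follow depth, and Myocd, with 159 UMIs, reached 49.7%.

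Cells with a Cnn1 UMI were set against cells without one, a split chosen after these values were seen. At 2000 UMIs a cell, which 416 SMCs reached and 68 did not, 195 cells had a Cnn1 UMI and 221 had none, and some of the latter will have missed it by sampling. Actg2 was 6.90-fold, 4.66-fold, 4.50-fold and 5.11-fold higher in cells with Cnn1 in CSD 1, CSD 2, HC 1 and HC 2. These folds rest on few UMIs. In the 85, 27, 46 and 63 cells without Cnn1, Actg2 averaged 0.0471, 0.0741, 0.109 and 0.111 UMIs. Actg2 was found in 26.7% of cells with Cnn1 and 5.43% of those without. The major genes differed less: Acta2 by 1.38-fold, 1.49-fold, 1.28-fold and 1.37-fold, and Tpm2 by 1.46-fold, 1.51-fold, 1.27-fold and 1.48-fold. Mylk, the kinase, differed little at 1.06-fold, 0.92-fold, 1.12-fold and 1.31-fold.

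Vtn and Rgs5 ran the other way across the same split in all 4 libraries. Vtn, a pericyte marker, was at 0.190, 0.0259, 0.124 and 0.208 of its level in cells without Cnn1. Its value in CSD 2 rests on a mean of 0.0345 UMIs in 29 cells with Cnn1. Pdgfrb, the receptor that holds pericytes to vessels, was at 0.897, 0.196, 0.592 and 0.286. Rgs5, a regulator of G-protein signalling, was at 0.189, 0.0887, 0.167 and 0.295. Notch3, a receptor of mural cells, was at 0.760, 0.508, 0.909 and 0.982, close to level in both HC libraries. The SMC marker Sncg was lower as well, at 0.566 to 0.794. When cells were split by Actg2 instead (64 with and 352 without), Cnn1 was 3.11-fold, 1.48-fold, 3.02-fold and 2.88-fold higher in cells with Actg2. A split by Myocd (48 with and 368 without) left Acta2 at 0.98 of the level in the other cells. Across thinned SMCs of 1 library, Acta2 correlated with Tagln at Pearson r = 0.64 to 0.68 and with Tpm2 at 0.63 to 0.71 but with Myh11 at −0.06 to 0.28. The points are 56 to 162 cells that share a library, and no p is given.

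**Figure D4:**
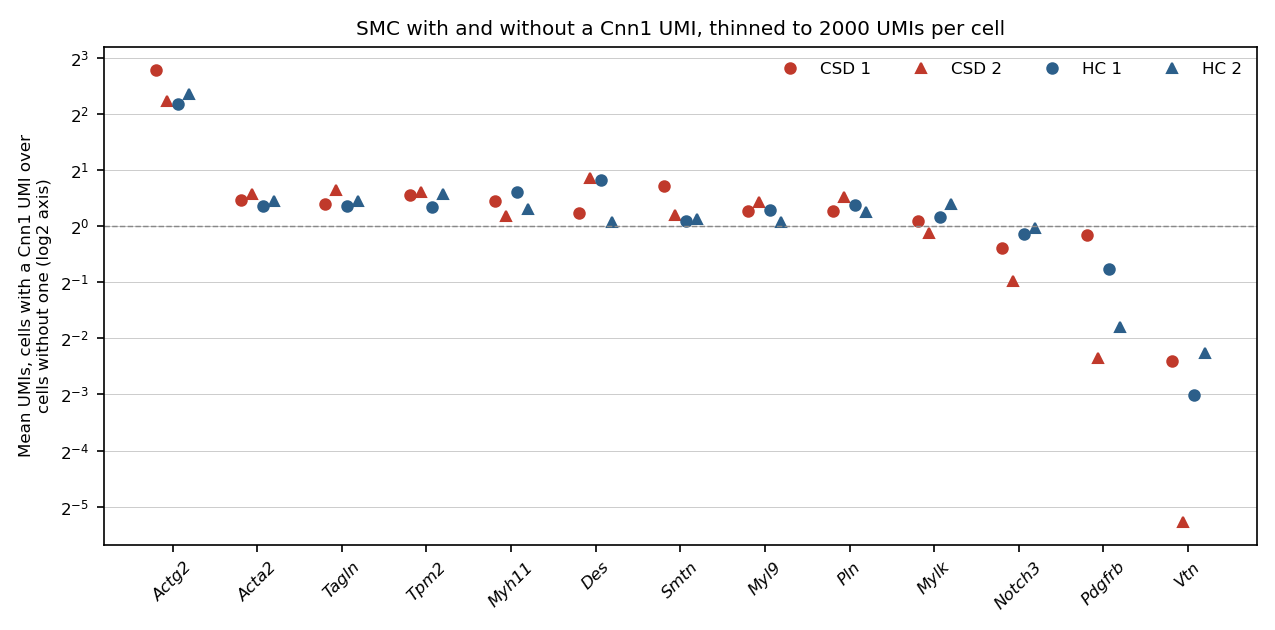
Ratio of mean UMIs in SMCs with a Cnn1 UMI to those without, at 2000 UMIs a cell (log axis, 1 point a library). Actg2 lies between 4.50 and 6.90 in the 4 libraries, Acta2, Tagln and Tpm2 between 1.27 and 1.55, and Vtn below 0.21. The ratios of Actg2 and Vtn rest on few UMIs.

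Genes most like the set in pattern were sought over 48 sums (12 classes in 4 libraries, log2 of CPM plus 1) among 12761 genes. After Acta2, Tagln, Myl9 and Tpm2 themselves came Mustn1 (Pearson r = 0.88 with the summed level), Npy1r, a neuropeptide Y receptor (0.88), the olfactory receptor gene Olfr558 (0.88), Nrip2 (0.88) and Mylk (0.86). Mustn1, Nrip2 and Mylk were among the markers that named SMCs, so their rank is in part given. Sums of 1 library share its depth and free RNA, and the r values are descriptions.

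The comparison of CSD with HC asked whether 14 days of defeat moved the contractile set. In SMCs no contractile gene passed the test: edgeR's quasi-likelihood test on UMIs summed per library, with Benjamini-Hochberg adjustment, called 0 of 10. The background was 0 of 6261 genes called (0%), with 178 at an unadjusted p under 0.05. DESeq2 called 0 of 14629 genes, with 21 at an unadjusted p under 0.05. Differences are edgeR's log2 of CSD over HC with 95% intervals. Acta2 differed by 0.01 (−0.40 to 0.41), Tagln by 0.02 (−0.38 to 0.43), Myh11 by 0.02 (−0.39 to 0.43), Myl9 by −0.09 (−0.49 to 0.30) and Tpm2 by 0.10 (−0.31 to 0.51). The intervals of these 5 abundant genes all lay between −0.49 and 0.51. Des was at 0.06 (−0.34 to 0.46), Cnn1 at 0.34 (−0.11 to 0.80), Smtn at −0.21 (−0.64 to 0.23) and Actg2 at 0.13 (−0.38 to 0.64). With 1 library left out Cnn1 moved to 0.54 without CSD 1, 0.11 without CSD 2, 0.55 without HC 1 and 0.17 without HC 2, and Smtn to between −0.34 and −0.04, with none called.

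Myocd had the largest value in SMCs, 0.57 ± 0.26 (SE), with an unadjusted p of 0.049 and an edgeR adjusted p of 0.999. After the TMM scaling of the fit, which is the scale of every count of separated groups given here, Myocd was higher in both CSD libraries than in both HC libraries, and Myl9 lower (7434 and 7019 in CSD against 7664 and 7758 CPM in HC). Without that scaling Myl9 overlapped between the groups, as its levels above show. Such separation is common at 2 against 2, and 14.7% of all genes tested lay wholly higher in CSD and 15.4% wholly lower, against 1 of 10 contractile genes each. Myocd rested on 159 UMIs in SMCs. The median over the 10 genes was 0.04 against 0.00 over all genes tested.

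The summed contractile level in SMCs differed by 0.05 ± 0.07 (SE) on the log2 scale (exact permutation p = 0.667, two-sided). SMCs were 4.36%, 2.35%, 3.30% and 3.08% of cells in CSD 1, CSD 2, HC 1 and HC 2, a difference of 0.167 percentage points (exact permutation p = 1), and pericytes 2.43%, 6.35%, 2.67% and 4.48% (0.813 percentage points, exact permutation p = 1). The 2 CSD libraries lay on either side of both HC libraries in each share.

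In pericytes 7 of the 10 genes had enough UMIs to be tested and 0 were called. The background was 0 of 3086 genes (0%), with 111 at an unadjusted p under 0.05. DESeq2 called 0 of 13550 genes, with 20 at an unadjusted p under 0.05. Tagln differed by 1.43 (−0.26 to 3.12), Acta2 by 1.14 (−0.17 to 2.44) and Myh11 by 0.92 (−0.08 to 1.92). Smtn was at 0.38, Des at 0.15, Tpm2 at −0.12 and Myl9 at −0.14. Smtn and Myh11 were higher in both CSD libraries, where 16.9% of all genes tested were higher and 16.4% lower. Cnn1, Myocd and Actg2 had too few UMIs.

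The values of Acta2 and Tagln in pericytes came from a single library. Acta2 stood at 663 CPM in CSD 1 and 122 to 219 CPM in the other 3, and Tagln at 553 CPM against 47.0 to 151 CPM. Without CSD 1 the differences were −0.27 for Acta2 and −0.45 for Tagln. Of 84 Acta2 UMIs in CSD 1 pericytes, 60 lay in 5 of 99 cells that had at least 5 each, and in CSD 2, HC 1 and HC 2 such cells numbered 2 of 162, 0 of 76 and 2 of 221 with 22, 0 and 13 UMIs. Some marker lists of other cells were also highest in CSD 1 in the pericyte sums. Microglia markers were at 1342, 99.1, 197 and 331 CPM, EC markers at 2258, 1575, 611 and 994 CPM and SMC markers at 1310, 1129, 978 and 1014 CPM. Erythrocyte markers were the largest of these, at 17429, 149, 15068 and 9.75 CPM, and were high in HC 1 as well. The pericyte markers themselves were at 15211, 28365, 24092 and 21992 CPM, lowest in CSD 1. Other lists were not highest there, such as astrocyte markers at 513, 934, 291 and 770 CPM and ependymal markers at 497, 640, 790 and 648 CPM. Their part in the result was not tested. Without CSD 2, edgeR called Acta2 (1.91), Tagln (2.34) and Myh11 (1.504) higher, among 40 of 2945 genes (1.36%), and without HC 2 it called Tagln (2.72), among 4 of 2990 (0.134%), in each case with 1 library left in that group that was assumed to vary like the other group.

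The interaction of class and condition, which tests whether the CSD difference is unlike in SMCs and pericytes, called 0 of the contractile genes tested. Cnn1 and Actg2 had too few UMIs in pericytes and were left out of it. Of 6194 genes 2 were called (0.0323%), and 244 had an unadjusted p under 0.05. The difference of differences, SMCs minus pericytes, was −0.90 ± 0.66 (SE) for Acta2 and −1.14 ± 0.76 for Tagln.

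**Figure D5:**
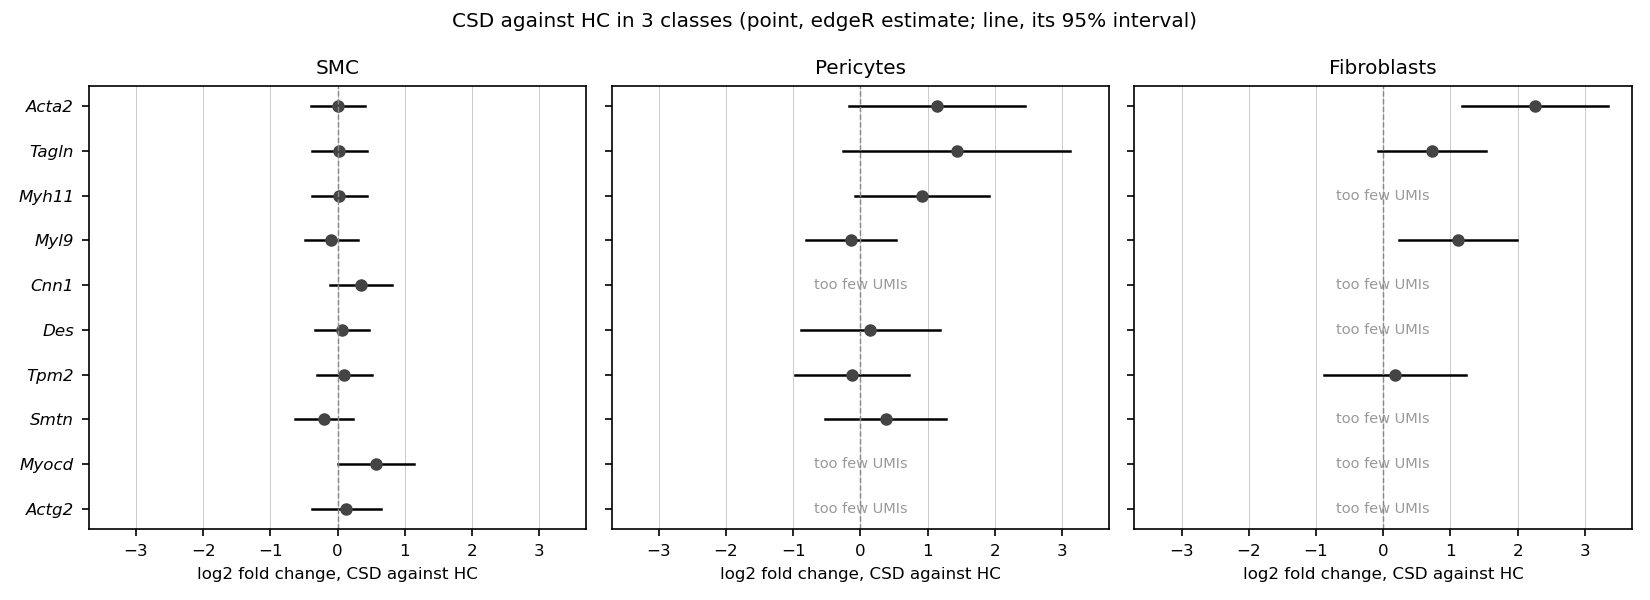
Log2 difference of CSD against HC (points, edgeR) with 95% intervals (lines) for each contractile gene tested in SMCs, pericytes and fibroblasts. The SMC points of the abundant genes sit within 0.10 of 0, the pericyte intervals are wider and all cross 0, and those of Acta2 and Myl9 in fibroblasts lie above 0 without adjustment.

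In fibroblasts edgeR tested 4 of the genes and called 0, with 2 at an unadjusted p under 0.05. DESeq2 called 0 of 8. Over all genes edgeR called 5 of 2778 (0.18%), all higher: Rgs5, Slc2a1, Errfi1, Flt1 and Ly6c1. Of these Slc2a1, Flt1 and Ly6c1 are EC markers. Acta2 differed by 2.26 ± 0.48 (SE, edgeR adjusted p = 0.17), Myl9 by 1.11 ± 0.39 (adjusted p = 0.508), Tagln by 0.72 and Tpm2 by 0.17. Of the 4 genes 3 were higher in both CSD libraries, where 20% of all genes tested were higher and 17.4% lower. The Acta2 value rested on 57 UMIs, of which 3 cells, 2 in CSD 1 and 1 in CSD 2, held 45. EC markers in the fibroblast sums were at 1254, 1960, 252 and 372 CPM, arterial EC markers at 173, 141, 22.3 and 4.89 and SMC markers at 215, 270, 81.6 and 157. All of these lists were higher in the CSD libraries, whereas pericyte markers (700, 878, 549 and 1081 CPM) overlapped between the groups. Choroid plexus markers overlapped as well, at 8764, 8299, 8675 and 7831 CPM. They were above the fibroblast markers themselves (4814, 3655, 5069 and 6535 CPM) in every library. The part of such markers in the Acta2 value was not tested. In ECs 7 of the genes were tested and 0 called by edgeR, with 0 at an unadjusted p under 0.05, against 6 of 10032 genes (0.0598%), and DESeq2 gave no adjusted p for them. Without CSD 1, 4 of the 7 were called lower in CSD (Acta2 at −1.29, Tagln at −1.63, Myh11 at −1.52 and Myl9 at −0.96), when 108 of 10344 genes (1.04%) were called lower and 337 in either direction. Without CSD 2, 1 was called higher (Tagln at 0.72), when 145 of 10406 genes (1.39%) were called higher. The EC levels in CSD 2, 174 CPM summed, were the lowest of the 4 libraries, as were those of its free RNA at 1874 CPM. The highest library was CSD 1 in ECs, at 396 CPM, but HC 1 in free RNA, at 3289 CPM. The part of free RNA in the EC values was not tested.

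The wider contractile system was described from lists that hold none of the 10 genes. Contractile partners, which include the essential light chain Myl6, were tested for 23 of 23 genes in SMCs. None was called, 18 were positive and the median was 0.08 against 0.00 over all genes. The most abundant partners were Myl6 at 8896 ± 316 CPM (SD, n = 4), the intermediate filament gene Vim at 4131 ± 318 and Tpm1 at 3458 ± 242. Of the 23, Mylk, Pdlim3, Pdlim7, Zyx and Synm were higher in both CSD libraries and Tpm1 and Rhoa lower, beside the 14.7% and 15.4% of all genes above. Synm was at 0.36 ± 0.20 (SE) and Tpm1 at −0.18 ± 0.19. Of the SRF and myocardin cofactors 10 of 14 were tested, 0 were called and the median was 0.01. The most abundant genes of that list, which also holds genes of Notch signalling, were the receptor Notch3 at 256 CPM, Tgfb1i1 at 177 and the Notch ligand Jag1 at 170.

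Of 23 genes of calcium and membrane excitability 16 were tested in SMCs, 0 were called and the median was 0.02. Pln, which restrains the calcium pump, was at 1113 ± 148 CPM and the pump itself, Atp2a2, at 563 ± 16.4 CPM. Gucy1a1, a subunit of the nitric oxide receptor that relaxes muscle, was at 295 CPM. It was lower in both CSD libraries with a difference of −0.50 ± 0.20 (SE, unadjusted p = 0.027, edgeR adjusted p = 0.999). Among other actins Actb was at 8084 CPM and Actg1 at 1227, both with a difference under 0.03, and the skeletal Acta1 had no UMI in SMCs.

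Genes of the synthetic state, which SMCs are known to raise as they lose contractile proteins, gave 8 of 12 tested and 0 called, with a median of −0.01. Mgp, an inhibitor of calcification, averaged 4340 ± 3608 CPM because HC 1 stood at 9480 CPM. Klf4, a factor known to repress contractile genes, was at 648 ± 177 CPM and Ly6a at 205 ± 46.6 CPM. Myh10, the non-muscle heavy chain of the same list, was at −1.04 with an unadjusted p of 0.019. Immediate-early genes, 19 of 19 tested and 0 called, were abundant in SMCs of both groups, with Fos at 6672 ± 1426, Junb at 3669 ± 1080 and Jun at 2407 ± 710 CPM. In pericytes the same 6 lists held 0 called genes. Their medians were 0.04, −0.03, −0.06, −0.04, 0.33 and 0.25 in the order given here, against 0.00 over all 3086 genes tested. Of the 16 immediate-early genes tested there, 14 were positive and 0 had an edgeR unadjusted p under 0.05.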

How the data were processed

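Libraries were made with a 10x Genomics 3′ kit (v3.1). The authors deposited raw UMI counts per gene and barcode for all barcodes, aligned to GRCm38 (mm10). The submitters' processing notes name Cell Ranger 4.0. The 10 genes and all lists were chosen with earlier results of these data known. Named were the 10 genes, called genes of the lists, the 3 most abundant of each list in SMCs and the 5 genes most like the set. Other genes named were chosen after their values were seen.

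Cells were integrated with SCTransform (sctransform 0.4.2) and Seurat 5.3.0 in R 4.3.3 (3000 variable genes without the 10 genes, 40 components, resolution 1.6, 35 clusters). Scrublet in scanpy 1.11.5 marked 0.098% and 0.431% of cells in the CSD libraries and 1.23% and 1.48% in HC. Its calls were used only as an alternative. UMIs were summed per class and library and tested with edgeR 4.0.16 (filterByExpr, TMM, two-sided, Benjamini-Hochberg over all genes, threshold 0.05) where every library held at least 10 cells. Alternatives were DESeq2 1.42.0, other filters, classes and libraries left out. Counts were also simulated on the real genes, all with the same dispersion of 0.05. There 4-fold changes were recovered for 75.3% of changed genes in SMCs and 87.6% in pericytes, and 2-fold changes for 8.08% and 17.9%. Genes that vary more between libraries, as Acta2 and Tagln did in pericytes, were not simulated, so the shares do not hold for them.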

Additional observations from a re-analysis of the deposited data

Results flagged for a closer look

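Droplets of at most 100 UMIs, which no comparison of conditions used, held 37341 UMIs of the 10 contractile genes. Their level there was 2332 CPM in CSD 1, 1874 in CSD 2, 3289 in HC 1 and 2209 in HC 2, so the groups overlapped. Acta2 alone was at 765, 607, 1098 and 745 CPM. The value is listed because it lies above the limit that a count of 0 allows in data outside the main measurement.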

How the results depend on the processing

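Across DESeq2, its size factors, no low-count filter, a replicate block, at least 1000 UMIs, a complexity limit, removal of marked doublets, a gate per cell and clustering with the 10 genes allowed, 0 contractile genes were called in SMCs, pericytes and ECs (DESeq2 gave no adjusted p for ECs), and in fibroblasts 1 was called without the filter, where 105 of 13919 genes were called. Among all genes, no filter gave 14 calls in SMCs and 8 in pericytes, and the gate per cell 1 in pericytes. With 1 library left out, contractile calls ranged from 0 to 3 in pericytes, 0 to 1 in fibroblasts and 0 to 4 in ECs, and were 0 in SMCs. Calls over all genes ranged from 0 to 12 in SMCs, 4 to 44 in pericytes, 1 to 149 in fibroblasts and 15 to 337 in ECs. Without the small, deep fibroblast cluster, an alternative chosen after seeing the data, 0 of 1782 genes were called. The interaction had no alternatives. The causes were not tested.

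The replicate numbers give only 2 pairs, and same-numbered libraries deviated together at r = 0.057 in SMCs and 0.159 in pericytes. With the replicate block 0 contractile genes were called in any class, and 6 of all genes in SMCs, 0 in pericytes and 24 in fibroblasts.

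Values near 0 changed sign in SMCs, and in pericytes the largest values, those of Tagln (1.43) and Acta2 (1.14), did so as well. In SMCs without marked doublets Acta2 was at −0.026, Tagln at −0.013 and Myh11 at −0.017, and with the gate per cell at −0.039, −0.017 and −0.033. With 1 library left out, Acta2 ranged from −0.086 to 0.11, Tagln from −0.085 to 0.15, Myh11 from −0.084 to 0.15, Des from −0.0043 to 0.12, Tpm2 from −0.020 to 0.23 and Actg2 from −0.10 to 0.46. Without a change of sign, Cnn1 ranged from 0.11 to 0.55 and Smtn from −0.34 to −0.04, and the gate per cell gave −0.31 for Smtn. In pericytes the gate per cell gave −0.15 for Acta2, −1.05 for Tagln and −0.20 for Des. Clustering with the 10 genes allowed gave −0.11 for Acta2 and −0.085 for Des, and at least 1000 UMIs gave 0.11 for Tpm2. With 1 library left out, pericyte Acta2 ranged from −0.27 to 1.91, Tagln from −0.45 to 2.72, Myl9 from −0.35 to 0.11, Des from −0.62 to 0.83 and Tpm2 from −0.78 to 0.44, and Myh11 kept its sign from 0.24 to 1.504. The gate per cell gave 0.46 for Myh11 and −0.87 for Tpm2. Pericytes are limited by depth, with 281 of 558 under 1000 UMIs.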
